A study of Homo sapiens with 4 samples.

Results

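ER-associated degradation (ERAD) is the route by which misfolded proteins are pulled out of the endoplasmic reticulum (ER) and destroyed by the proteasome. Its genes were taken as a fixed list of 33: lectins and glycan-trimming enzymes, membrane ubiquitin ligases with their scaffolds, ubiquitin-conjugating (E2) enzymes, derlins, and the ATPase p97 with its partners. The list names genes by function and its rule uses no measured value, but it was drawn up with earlier results of these data known. Each gene stood by its brightest probe set that carried no other gene's symbol. In all, 32 of the 33 were measured, among 18417 genes on the array. RNF5 is not analysed here, because each of its probe sets also carries the symbol of a pseudogene.

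Expression was profiled in MiaPaCa2, an established line from a human pancreatic carcinoma, on Human Gene 1.0 ST arrays. Cells were exposed for 24 h to vehicle (2 arrays) or to 50 µM of LY101-4B (2 arrays), and the samples of a group count as biological replicates per the design text. The treatment protocol entry disagrees, naming LY101-4D and a dose of 25 µM; titles, agent labels and design text were followed. Per its title the series asks how this line responds to an E2F inhibitor, which is known here by its code only, and all values come from a single cell line. E2F proteins are the transcription factors that drive entry into S phase.

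A misfolded glycoprotein is marked by stepwise removal of mannose residues, read by lectins, and handed to a ligase complex built around SYVN1 (also called HRD1) and its partner SEL1L. The protein is threaded through the membrane, tagged with ubiquitin by E2 enzymes and ligases, extracted by p97 and carried to the proteasome. Many ERAD genes are known targets of the unfolded protein response, whose sensors ATF6, IRE1 and PERK raise ER folding and degradation capacity through the factors ATF6, XBP1 and ATF4. In secretory epithelium such as pancreas this system carries a high load.

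Promoter sequence is shown first for the 5 measured members whose window held an exact ERSE-II or UPRE, or an ERSE or ERSE-II with 1 letter changed, which are elements known from promoters of ER stress genes, whatever the change of the member. VCP, which did not pass the test of change, is among them, and HERPUD1, SEL1L, SYVN1 and UBE2J1 were called higher. RefSeq windows of GRCh38.p14, from 250 bases before to 50 bases after each start, were found for 24 of the 32 measured members. The ER stress element ERSE was searched as CCAAT and CCACG with 9 bases between them, ERSE-II as ATTGG and CCACG with 1 base between them, the XBP1-type element UPRE as TGACGTGG, and the ATF4-type element CARE as TGATGNAA, each on both strands. CCACG is part of both ERSE and ERSE-II and is the reverse complement of letters inside UPRE. Capitals mark letters that match an element. In SEL1L, SYVN1 and the ERSE of HERPUD1, 1 letter of each element is changed and stands in lower case, as do spacer bases that no other element covers. In SYVN1 the ERSE-II overlaps the ERSE, so AT and GG inside the ERSE spacer are capitals, and the g between them is the changed letter of the ERSE-II. The stretches lie at chr16:56931941-56932102 on the plus strand for HERPUD1, at chr14:81533997-81534085 on the minus strand for SEL1L, at chr11:65134610-65134678 on the minus strand for SYVN1, at chr6:89352921-89352972 on the minus strand for UBE2J1 and at chr9:35072782-35072839 on the minus strand for VCP, all read 5′ to 3′ along the gene and ending before the start.
HERPUD1: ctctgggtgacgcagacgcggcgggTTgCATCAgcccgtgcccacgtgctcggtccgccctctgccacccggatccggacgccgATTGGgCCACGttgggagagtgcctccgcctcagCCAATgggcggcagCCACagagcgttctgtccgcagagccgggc
SEL1L: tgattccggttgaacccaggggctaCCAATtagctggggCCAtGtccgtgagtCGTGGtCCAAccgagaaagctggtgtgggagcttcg
SYVN1: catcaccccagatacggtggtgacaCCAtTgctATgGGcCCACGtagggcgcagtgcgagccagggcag
UBE2J1: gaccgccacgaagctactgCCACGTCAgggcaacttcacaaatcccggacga
VCP: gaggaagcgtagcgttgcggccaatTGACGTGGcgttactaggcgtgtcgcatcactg

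HERPUD1 held an exact ERSE-II from -117 to -107 relative to its start and a CARE on the opposite strand from -176 to -169. ERSE-II was in 0.0696% of the 27305 genes with a promoter window and in 0.119% of the 14239 that also had a probe set of their own, and CARE in 4.46% and 3.59%. A gene counted if any of its windows held the element. UBE2J1 held UPRE from -231 to -224 on the opposite strand. This element was found in 0.927% of all genes with a window and 1.12% of those with a probe set. VCP also held UPRE, from -189 to -182 on its own strand. No member held an exact ERSE (0 of 24), against 0.0916% of all genes with a window and 6 of 15 ER chaperone genes. Matches with 1 letter changed were looked for after the exact counts were known. Such an ERSE stood in HERPUD1 from -83 to -65, in SEL1L from -207 to -189 and in SYVN1 from -134 to -116. It was found in 1.81% of all genes with a window. Such an ERSE-II stood in SEL1L from -179 to -169 and in SYVN1 from -126 to -116, overlapping the ERSE there. It was found in 1.40% of all genes with a window. The bare letters CCACG were in 9 of 12 members called higher and in 9 of 12 of the others. They were in 42.1% of all genes with a window and 51.1% of those with a probe set. The E2F letters TTTCCCGC were in 1 member, DERL2 (-94 to -87), against 1.98% of all genes with a window. TTTGGCGC was in 0 of the 24 members, against 0.795%. These matches describe letters in short windows and are not measured binding.

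Values below are log2 RMA units per array, and differences are LY101-4B minus vehicle on that scale with the moderated standard error (SE) of limma, a linear model fitted over all 21214 probe sets that carry a gene symbol. A gene was called at a Benjamini-Hochberg adjusted p under 0.05 over all of these. Of the 32 measured members 15 rose with LY101-4B, 2 fell and 15 did not pass. Rises were called for 5 of 6 luminal genes, 6 of 12 ligases and scaffolds, and 3 of 6 derlins and p97 recruiters. For the E2 enzymes it was 1 of 4, and for the p97 group 0 of 4. With only 4 genes, 0 or 1 rise did not set a group apart from the 9.10% of all tested probe sets called higher. HERPUD1 (5.05-fold), SEL1L (3.56-fold), EDEM1 (2.85-fold) and EDEM2 (2.64-fold) rose most. In shares, 46.9% were higher and 6.25% lower, against a background of 9.10% of all tested probe sets called higher and 10.5% called lower. All measured members but DERL3 were in the brighter 50% of probe sets. Fitted alone, this brighter 50% of the 21214 probe sets had 2151 higher and 2816 lower. These counts exceed the 1930 and 2236 called among all 21214. The shares of 9.10% and 10.5% thus understate how common calls were among bright probe sets. Both are too low a comparison for the 46.9% and 6.25% of the members. Of the 31 members in that fit 15 were higher and 2 lower. The median difference of the members was 0.29 log2 units, against 0.005 over all tested probe sets, and members ranged from -0.49 to 2.34. The groups did not overlap for 28 members, or 87.5%, against 58.0% of all tested probe sets. In bulk RNA a change in the number of cells of 1 state and a change of RNA per cell cannot be told apart. With 2 arrays a group the order of samples alone carries little, so each call rests on the fitted spread. Leaving out any 1 array left 11 to 14 members higher and 0 to 2 lower; the falls, those of ERLIN1 and UBE2G2, were both lost without vehicle replicate 1 and without vehicle replicate 2, and without LY101-4B replicate 1 only that of ERLIN1 was called.

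**Figure D1:**
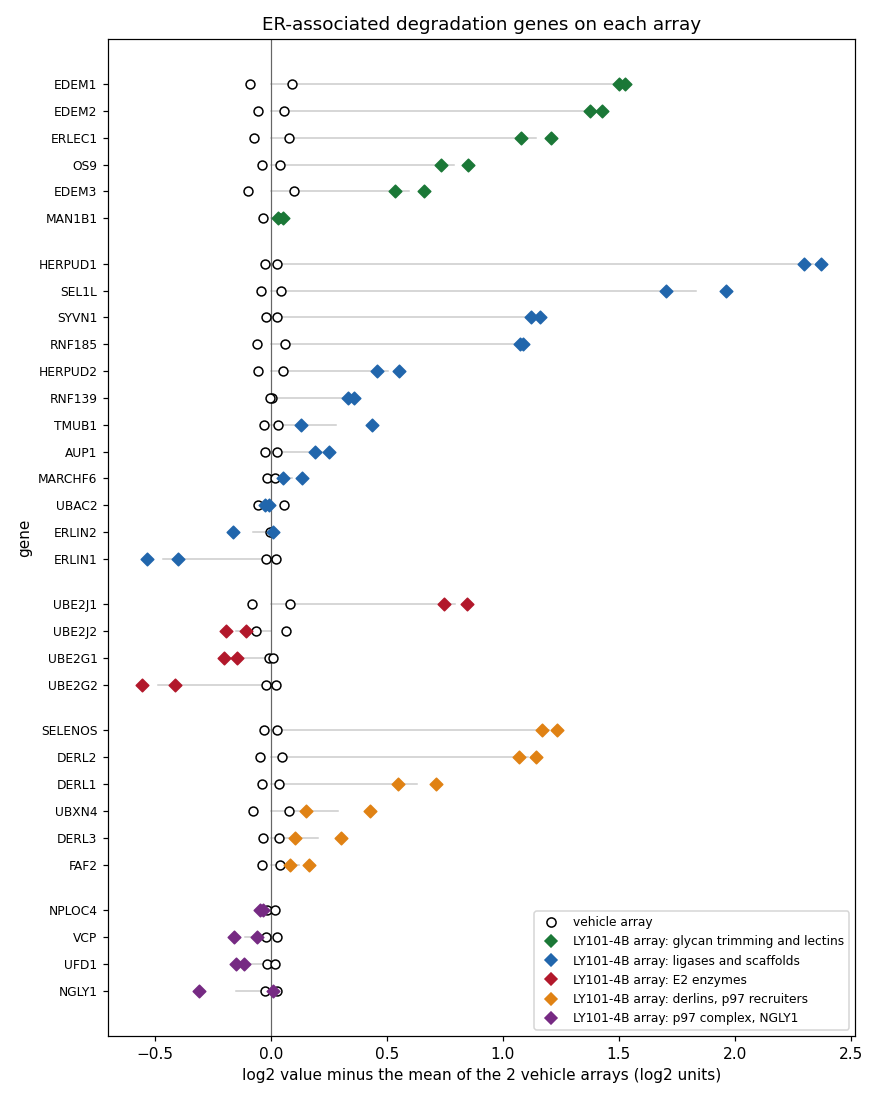
Log2 value on each of the 4 arrays minus the mean of the 2 vehicle arrays (x axis, log2 units) for the 32 measured ERAD genes (y axis), grouped by role; open circles are vehicle arrays, filled diamonds LY101-4B arrays, and grey lines run from the vehicle mean to the LY101-4B mean. HERPUD1 lies farthest right at 2.34, and the p97 genes at the bottom lie between -0.15 and -0.04.

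The LY101-4B arrays gave much the same picture separately. The median member lay 0.32 above the vehicle mean on LY101-4B replicate 1 and 0.27 above it on replicate 2, with 22 and 24 of 32 members above. Across all tested probe sets the vehicle arrays correlated at r = 0.997, the LY101-4B arrays at 0.994 and arrays of different groups at 0.978 to 0.981. Of the markers of this carcinoma line KRT8, KRT18, KRT19 and VIM were at the 86.8th percentile of tested probe sets or above, KRT7 at 41.0 and the epithelial marker EPCAM at 7.9, so EPCAM was not evident. KRT8 (-0.84) and KRT18 (-0.57) fell. Of the markers of other cell types, LYZ fell among 4 of leukocytes, COL1A2 rose and COL3A1 fell among 5 of fibroblasts, and 0 of 4 were called for endothelium and 0 of 4 for acinar cells. Fibroblast markers were uneven in level, with COL1A2 at percentile 94.0, COL1A1 at 56.9, COL3A1 at 49.2, DCN at 4.0 and LUM at 1.8. Leukocyte markers lay at 3.4 to 38.0, endothelial at 13.7 to 23.9 and acinar at 12.5 to 42.3. The 4 endothelial differences were all below 0, at -0.13 to -0.04. Their part in the results was not tested.

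Among genes that select clients in the ER lumen, 5 of 6 members rose and 0 fell, with a median of 0.97 log2 units. EDEM1, a mannosidase-like factor that trims glycans of misfolded proteins, read 7.47 and 7.65 on the vehicle arrays and 9.09 and 9.06 with LY101-4B. Both treated arrays thus stood well clear of both vehicle arrays, a rise of 1.51 ± 0.10 log2 units (SE, n = 2 each) or 2.85-fold (limma adjusted p 0.000926). Its relative EDEM2 went from 7.21 and 7.32 to 8.64 and 8.69, a rise of 1.40 ± 0.09 or 2.64-fold. EDEM3 rose less, by 0.60 ± 0.11, from 8.40 and 8.60 to 9.03 and 9.16 (limma adjusted p 0.016), without overlap between the groups. EDEM3 missed the threshold without vehicle replicate 1 (0.114), without LY101-4B replicate 2 (0.0511) and when all rows of the table were tested (0.0577).

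The lectins that read trimmed glycans rose too. ERLEC1 (XTP3-B) read 8.12 and 8.27 in vehicle and 9.27 and 9.40 with LY101-4B, 2.21-fold higher (limma adjusted p 0.0019). OS9, the other lectin of the SEL1L complex, rose 1.73-fold, from 9.12 and 9.04 to 9.81 and 9.93. MAN1B1, a mannosidase of the same group, was the exception. It read 7.83 and 7.76 against 7.85 and 7.82, overlapping groups, and its difference of 0.04 had a 95% interval from -0.17 to 0.26, so a rise as large as those of the EDEM genes lay outside it. The sign of this small difference turned to -0.02 with arrays centred on their medians.

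Among membrane ligases and their scaffolds 6 of 12 measured members rose, 1 fell and 5 did not pass, with a median of 0.31. The SYVN1 complex accounted for the largest of these rises. HERPUD1, a ubiquitin-like membrane protein that assembles SYVN1 with derlins, read 9.82 and 9.87 in vehicle and 12.1 and 12.2 with LY101-4B. It rose by 2.34 ± 0.09 log2 units, 5.05-fold (SE, n = 2 each; limma adjusted p 0.00043), and was number 21 among 21214 probe sets ordered by rise. SEL1L, the adaptor that holds lectins and ligase together, read 7.99 and 7.90, then 9.65 and 9.90. Its rise of 1.83 ± 0.12, or 3.56-fold, put it at number 56 in that order, with the treated arrays 0.26 log2 units apart.

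SYVN1, the ligase itself, rose 2.20-fold, from 7.08 and 7.13 to 8.26 and 8.22 (limma adjusted p 0.00123). The SEL1L and SYVN1 promoters were printed above because they hold a match with 1 letter changed, so sharing such an ERSE with HERPUD1 follows from that choice. It stood in 3 of 12 members called higher, in 0 of 12 of the others and in 2.21% of genes with a window and a probe set. A part of these letters in the rises was not tested. RNF185, a small membrane ligase closely related to RNF5, rose 2.11-fold, from 7.03 and 6.91 to 8.05 and 8.06. HERPUD2, the close relative of HERPUD1, rose by 0.51 ± 0.09, from 8.83 and 8.94 to 9.34 and 9.43 (limma adjusted p 0.0168). RNF139 (TRC8), a sterol-linked ligase, rose by 0.35 ± 0.08, from 7.86 on both vehicle arrays to 8.19 and 8.22 (limma adjusted p 0.0386). These smaller rises were less firm: HERPUD2 was not called without vehicle replicate 1 (0.139), without vehicle replicate 2 (0.0778) or with all rows tested (0.0569). RNF139 missed it without any 1 of the arrays (limma adjusted p 0.0678 to 0.237), with arrays centred on their medians (0.0849) and with all rows tested (0.0937).

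The other ligase genes changed little. MARCHF6 (TEB4), a ligase for tail-anchored and sterol enzymes, differed by 0.09 (95% interval -0.13 to 0.31), and UBAC2, which holds lipid droplet factors at the ER, by -0.02 (-0.24 to 0.21). The sign of UBAC2 turned with cyclic loess (0.03) and without vehicle replicate 2 (0.04). TMUB1, a ubiquitin-like membrane adaptor, differed by 0.28 ± 0.13, with the treated arrays at 8.58 and 8.27 against 8.17 and 8.11; without LY101-4B replicate 2 it passed (limma adjusted p 0.0423). AUP1, which recruits the E2 enzyme UBE2G2, differed by 0.22 ± 0.09 and passed only with an intensity trend (0.0444).

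ERLIN1 and ERLIN2 form a ring-like scaffold in the membrane that brings the ligase RNF170 to activated IP3 receptors. ERLIN1 read 10.6 on both vehicle arrays and 10.2 and 10.1 with LY101-4B, a fall of 1.38-fold (-0.47 ± 0.09, limma adjusted p 0.0212). ERLIN2 read 7.20 and 7.19, then 7.03 and 7.20, with overlapping groups and a 95% interval from -0.32 to 0.17. The fall of ERLIN1 was not called without vehicle replicate 1 (0.149), without vehicle replicate 2 (0.12) or with all rows tested (0.0662), and the sign of ERLIN2 turned without LY101-4B replicate 1 (0.009).

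**Figure D2:**
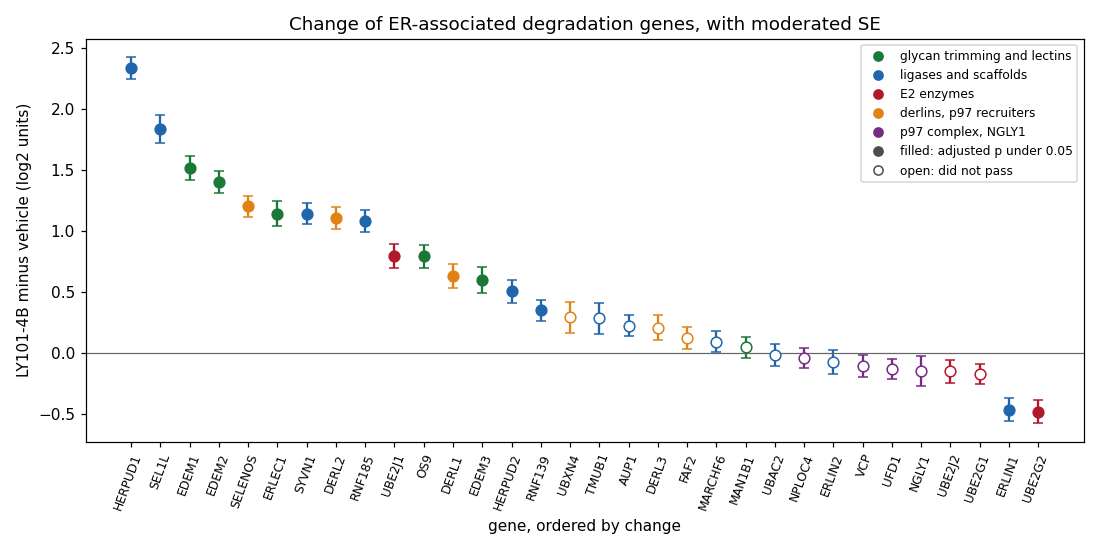
Difference LY101-4B minus vehicle (y axis, log2 units) of each of the 32 measured ERAD genes (x axis, ordered by difference), with bars of 1 moderated SE; colours give the role, filled points passed an adjusted p under 0.05 and open points did not. The 15 filled points above 0 run from HERPUD1 at 2.34 to RNF139 at 0.35, and the 2 below 0 are ERLIN1 and UBE2G2.

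The 4 E2 enzymes split. UBE2J1, the tail-anchored E2 that serves SYVN1, read 8.49 and 8.66 in vehicle and 9.32 and 9.42 with LY101-4B, a 1.73-fold rise (0.79 ± 0.10, limma adjusted p 0.00511). Its relative UBE2J2 differed by -0.15 ± 0.10 and did not pass, with a 95% interval from -0.39 to 0.08. UBE2G2, the soluble E2 recruited by AUP1, fell 1.40-fold, from 9.19 and 9.23 to 8.65 and 8.80 (-0.49 ± 0.09, limma adjusted p 0.0194). UBE2G1 read 10.8 on both vehicle arrays and 10.6 on both others, a difference of -0.18 ± 0.09 that passed only with an intensity trend (limma adjusted p 0.0488). The UBE2G2 call was lost without vehicle replicate 1 (0.112), without vehicle replicate 2 (0.137), without LY101-4B replicate 1 (0.0535) and with all rows tested (0.0627).

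Derlins form part of the channel through which clients leave, and with several membrane proteins they call p97 to that site. In this group 3 of 6 rose and 0 fell, with a median of 0.46. SELENOS (VIMP), a selenoprotein that links derlins to p97, read 7.47 and 7.52 in vehicle and 8.66 and 8.73 with LY101-4B, 2.30-fold higher (limma adjusted p 0.00114). DERL2 rose 2.15-fold, from 9.82 and 9.92 to 10.9 and 11.0. DERL1 rose 1.55-fold, from 8.49 and 8.57 to 9.08 and 9.24 (limma adjusted p 0.00965), and missed the threshold without vehicle replicate 1 (0.0755) or vehicle replicate 2 (0.0528).

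DERL3, the derlin known from secretory cells, was the dimmest member, at the 43.7th percentile of tested probe sets, and read 6.06 and 5.99 against 6.33 and 6.13. Its difference of 0.20 ± 0.10 did not pass, and no detection call tells whether it lay above background. UBXN4 (erasin), a p97 binder of the ER membrane, differed by 0.29 ± 0.13, with treated arrays at 10.2 and 10.4 against 9.94 and 10.1. FAF2 (UBXD8), another such binder, differed by 0.12 ± 0.09, and its dimmer probe set likewise by 0.12, although they read 13.4 and 10.4 on vehicle replicate 1.

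No called change was seen in the machine that extracts clients. VCP, which encodes p97, read 11.4 and 11.3 in vehicle and 11.2 and 11.3 with LY101-4B, a difference of -0.11 (95% interval -0.33 to 0.11). Its cofactors UFD1 (-0.14, interval -0.35 to 0.08) and NPLOC4 (-0.04, interval -0.25 to 0.17) likewise did not pass, and NPLOC4 changed sign with cyclic loess (0.04). NGLY1, the cytosolic enzyme that strips glycans from extracted proteins, differed by -0.15 (interval -0.46 to 0.16), with overlapping groups, and stood at 0.008 without LY101-4B replicate 1. The upper bounds of all 4 intervals are at most 0.17, so a rise of the size seen for DERL1 or OS9 is outside each.

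The size of change was set side by side for relatives within families, in 11 pairs, some of which share a gene. For each pair the difference between both genes' log2 values was formed on each array and compared between groups, which leaves their absolute levels aside. The 2-sided exact permutation p was 0.333 for every pair (0.333 adjusted over the 11 pairs), the smallest that 2 arrays against 2 allow. This test can pass no pair, so the sizes are given as descriptions. HERPUD1 rose 1.83 log2 units more than HERPUD2 (1.84 and 1.82 on the separate LY101-4B arrays), with replicate SDs of 0.04 for vehicle and 0.01 for LY101-4B. UBE2J1 exceeded UBE2J2 by 0.95, with SDs of 0.21 and 0.13.

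EDEM1 and EDEM2 lay within 0.11 of each other, and exceeded EDEM3 by 0.92 and 0.81. DERL2 rose by 0.48 more than DERL1 and by 0.90 more than DERL3, and DERL1 by 0.43 more than DERL3, a difference that was 0.25 on LY101-4B replicate 1 and 0.61 on replicate 2. ERLEC1 rose by 0.35 more than OS9. UBE2G2 fell by 0.31 more than UBE2G1, and ERLIN1 fell by 0.39 more than ERLIN2, here again unevenly, at 0.24 and 0.54 on the separate treated arrays.

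**Figure D3:**
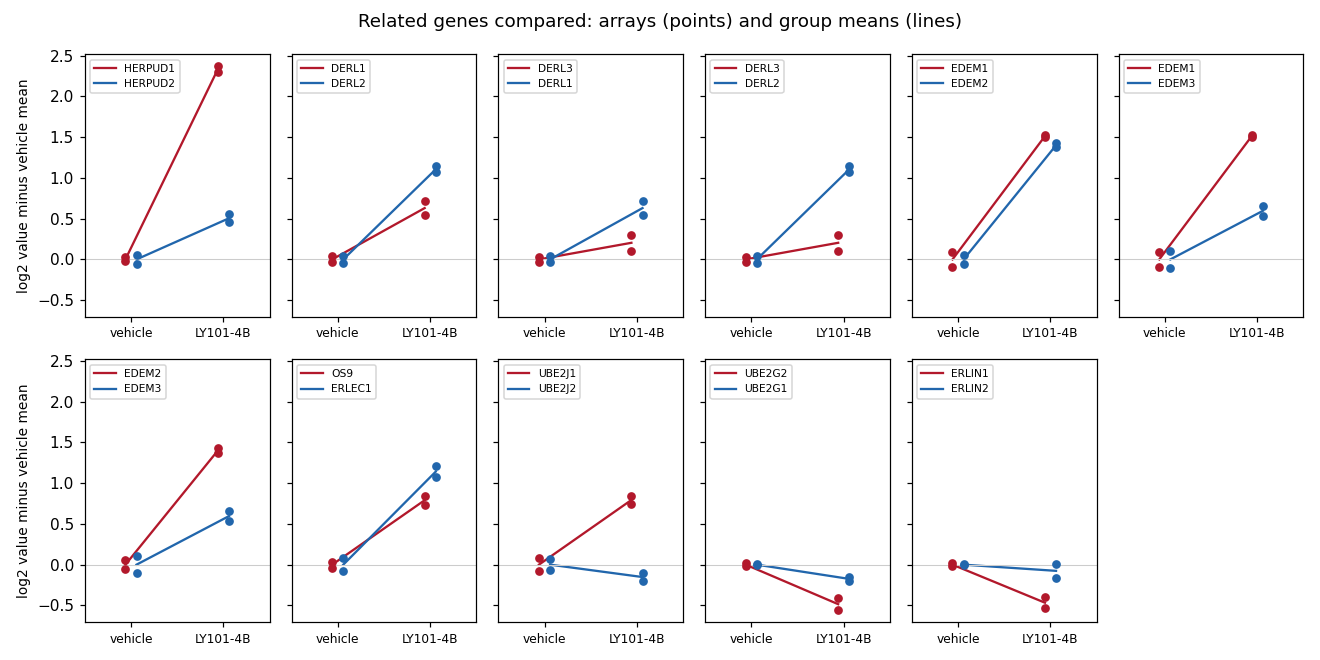
Log2 value minus the gene's vehicle mean (y axis, log2 units) for the 11 pairs of related genes in the vehicle and LY101-4B groups (x axis); points are arrays and lines join group means. The widest gap is between HERPUD1 and HERPUD2 (1.83), the narrowest between EDEM1 and EDEM2 (0.11).

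Other genes of the pathway, listed by function, were read on the same arrays. The counts stand beside the background of 9.10% of all tested probe sets called higher and 10.5% called lower. Of 59 measured genes 19 rose and 2 fell, with a median of 0.15; without vehicle replicate 1 the counts were 8 and 0. Among genes of luminal selection and reduction 11 of 16 rose and 1 fell. DNAJB9 (ERdj4), a co-chaperone that hands clients to degradation, rose 7.04-fold, and SDF2L1, a co-chaperone of ERdj3, 2.62-fold. HSPA5 (BiP), the main ER chaperone, rose 2.59-fold, and DNAJC10 (ERdj5), the reductase that opens disulfides before export, 2.31-fold. FOXRED2, a partner of that reductase, fell by 0.58 log2 units, and the call was lost without either vehicle array (limma adjusted p 0.109 and 0.0692) and with all rows tested (0.0558).

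Among other membrane ligases and partners 7 of 18 rose and 0 fell. RNFT1, a membrane ligase, rose 2.76-fold, from 8.06 and 8.20 to 9.53 and 9.65. CGRRF1, another membrane ligase, rose 1.64-fold, and the rhomboid-family genes RHBDD1 and RHBDD2 rose 1.63-fold and 1.62-fold. CGRRF1 (0.0612) and RHBDD1 (0.0625) missed the threshold without vehicle replicate 1. Of the cytosolic handling factors 1 of 25 rose, 1 fell and 23 did not pass, with a median of -0.003. The shares, 4% and 4%, stand beside 9.10% higher and 10.5% lower over all tested probe sets. With 25 genes, 1 rise and 1 fall did not set this list apart from those shares. The deubiquitinase gene USP25 rose 1.61-fold (limma adjusted p 0.0764 without vehicle replicate 1). USP13, another deubiquitinase, fell 1.51-fold (limma adjusted p 0.0585 and 0.0663 without either vehicle array).

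Neighbouring systems were read beside them, against the same background of 9.10% of all tested probe sets called higher and 10.5% called lower. All 15 measured ER chaperone and disulfide genes rose, with a median of 0.94, led by DNAJB9, HYOU1 (3.61-fold), MANF (2.83-fold) and DNAJC3 (2.72-fold), and 8 of 9 measured unfolded protein response sensors and factors rose. DDIT3 (CHOP) rose 11.8-fold, EIF2AK3 (PERK) 2.83-fold, CREB3L2 2.75-fold and XBP1 2.47-fold; the processing of XBP1 messenger RNA is not resolved by these values. Proteasome subunits went the other way: 0 of 28 rose and 12 fell (42.9%), by small amounts, with a median of -0.29. All measured subunits were bright, at percentile 84.3 or above. In the brighter 50% of the 21214 probe sets, fitted alone, falls were more common. There 2816 probe sets were called lower, more than the 2236 among all 21214, and 17 of the 28 subunits were lower. The 10.5% is thus too low a comparison for the 42.9% of the subunits. A background of probe sets as bright as the subunits was not tested. PSMA2 fell 1.51-fold, PSMD12 1.47-fold, PSMC6 1.47-fold and PSMD1 1.42-fold. The count of 12 fell to 0 without either vehicle array, to 5 without LY101-4B replicate 1, to 7 with cyclic loess and to 3 with all rows tested, and was 19 with an intensity trend. Some genes stand on more than 1 list (HSPA5, DNAJB9, SDF2L1, CALR and CANX), and all lists were read on the same 4 arrays.

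**Figure D4:**
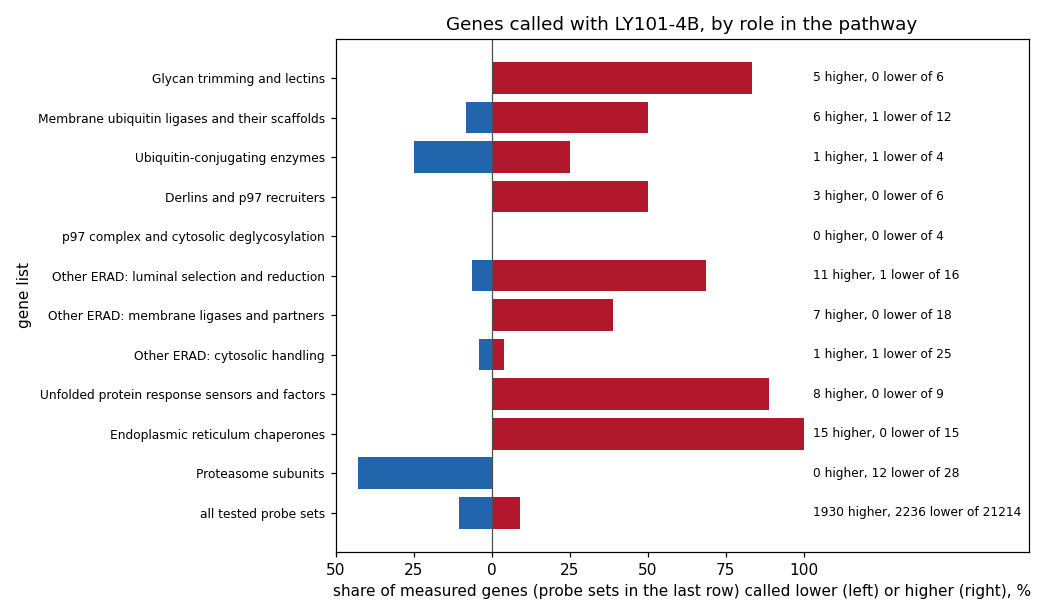
Share of measured genes called lower (left, blue) or higher (right, red) with LY101-4B (x axis, percent) for the 5 groups of ERAD members, 3 lists of other ERAD genes, 3 neighbouring lists and, in the last bar, all tested probe sets (y axis); counts stand at the right. Luminal and membrane groups extend to the right, the p97 group has 0 of 4 called, and proteasome subunits extend to the left (12 of 28).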

How the data were processed

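Per the submitters' processing notes, the authors made the deposited log2 values per probe set with RMA, which corrects background, quantile-normalises and summarises probes. No version of it is given in the sources used here, and neither are filters or the definition of probe sets. Changes are therefore relative to the bulk of probe sets. Total RNA was biotin-labelled and hybridised, per the labels' protocols; the FlashTag kit named there is usually used for small RNA, whereas this array reads longer transcripts, and what this means for the values is not known. No detection calls were used.

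Of 33297 rows, 19460 had 1 gene symbol, 1754 several and 12083 none in the platform annotation; 0 symbols needed updating through gene identifiers and 31 probe sets with 1 symbol had no RefSeq row. Treatment effects were estimated by limma (version 3.58.1, under R version 4.3.3; lmFit, eBayes; 2 residual degrees of freedom, prior 3.75), 2-sided, with Benjamini-Hochberg adjustment over 21214 probe sets. The fit was tested on simulated data. The number of arrays limits the precision.

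Members and lists were chosen with earlier results of these data known, so no set was tested. Named were all measured members, and of each other list up to 4 called genes with the largest rise and up to 4 with the largest fall; matches with 1 changed letter, which brought the SEL1L and SYVN1 promoters in, were searched after exact matches were known, and the VCP promoter was added though the rule took called members only. Alternatives left out each array, blocked on replicate number, recentred or renormalised arrays, filtered dim probe sets, changed the prior, the rows tested and the probe set rule.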

Additional observations from a re-analysis of the deposited data

How the results depend on the processing

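Of 646 gene-level comparisons with an alternative, 598 kept their direction and their side of the threshold, 39 missed it and 3 newly passed. The other 6 changed sign, all of differences under 0.2 log2 units that had not passed. MAN1B1 did so with arrays centred on their medians (-0.022), and NPLOC4 with cyclic loess (0.04). UBAC2 did so with cyclic loess (0.034) and without vehicle replicate 2 (range -0.074 to 0.04 over the arrays left out). ERLIN2 (-0.161 to 0.009) and NGLY1 (-0.309 to 0.008) did so without LY101-4B replicate 1. The replicate block, brighter 50%, intensity trend, robust prior and all rows tested leave each log2 difference unchanged. So does the mean of probe sets for a gene with 1 probe set. In these settings the direction could not turn, so only the side of the threshold was tested there. Without 1 array the fit has 1 residual degree of freedom and a lone array stands for its group, so a missed threshold need not mean a smaller difference; otherwise the cause was not tested. Leaving out each array gave 755 to 1899 probe sets higher and 811 to 2467 lower, 0 to 2 members lower, 8 to 19 other ERAD genes higher and 0 to 3 lower, and 0 to 9 proteasome subunits lower. With all rows tested, where the 12083 rows without a symbol also entered the variance fit and the adjustment, 1162 probe sets were higher and 1271 lower, 12 members higher and 0 lower, 1 other ERAD gene lower and 3 proteasome subunits lower. The brighter 50% of probe sets gave 4 other ERAD genes lower and left out DERL3 among the members. Proteasome subunits lower numbered 7 with cyclic loess and 19 with an intensity trend.

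The labels number replicates alike in both groups without saying that a number marks a shared culture. Deviations of same-numbered arrays correlated at 0.116, which with 2 pairs does not establish a pairing. With the replicate block 2024 probe sets were higher and 2312 lower, and 14 members were higher and 2 lower; RNF139 was the only member whose call was lost (limma adjusted p 0.0521). All 11 pair differences kept their sign when each array was left out and with cyclic loess. No gene of these pairs has a further probe set of its own, so the mean of probe sets repeats the main values and could change no sign. Signal over background is unknown here, which limits dim genes such as DERL3.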
